A study of Mus musculus with 80 samples.

Results

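Expression of the Tet genes and of 6 genes of base excision repair was followed in mouse embryonic stem cells (ESCs) during the transfer from serum to 2i. The genes were taken by symbol from the table of expression values: Tet1, Tet2, Tet3, Tdg, Smug1, Neil1, Apex1, Xrcc1 and Parp1, which are 9 of its 25965 rows. Dimethylation of lysine 9 of histone H3 (H3K9me2) was read in the 174 bins of 2 kb that touch these genes, out of 1026637 bins. All samples were wild-type ESCs of the E14 line, so every replicate comes from one line. RNA-seq held 12 libraries, 3 each from serum with LIF and from 6, 24 and 72 h in 2i, a serum-free medium with LIF and inhibitors of MEK and GSK3. H3K9me2 ChIP-seq, made with the antibody ab1220, held 2 bound libraries and 1 input for each of 3 conditions, namely serum, 24 h of 2i and cells kept long term in 2i (LT2i), for a time the labels do not give. The cells in serum are the control in both assays.

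TET proteins are dioxygenases that use iron and 2-oxoglutarate to oxidise 5-methylcytosine to 5-hydroxymethylcytosine and on to 5-formylcytosine and 5-carboxylcytosine. The last 2 forms are cut out by the glycosylase TDG, and base excision repair then puts an unmodified cytosine in their place. In that repair a glycosylase removes the base, APEX1 cuts the strand at the empty site, PARP1 binds the break, and XRCC1 holds the polymerase and ligase that close it. ESCs are known for high TET1 and TET2 and for little TET3, and cells in 2i for a lower level of DNA methylation than cells in serum.

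The members lie on 9 stretches of GRCm38 that differ widely in length. The Tet genes are long, with Tet1 at chr10:62804570-62899118 (94.5 kb), Tet2 at chr3:133463679-133544390 (80.7 kb) and Tet3 at chr6:83362373-83441678 (79.3 kb), all on the minus strand. The repair genes are shorter, from Apex1 at chr14:50924968-50927139 (2.17 kb) and Neil1 at chr9:57143256-57147034 (3.78 kb) to Parp1 at chr1:180568955-180601253 (32.3 kb). Smug1 lies at chr15:103153307-103158002, Tdg at chr10:82629828-82650799 and Xrcc1 at chr7:24547150-24573438. Tdg shares 367 bp with Glt8d2 and Apex1 shares 1070 bp with Tmem55b, each on the opposite strand. The library kit does not keep the strand, so reads from these shared stretches cannot be given to one gene.

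The 250 bases before the RefSeq start are shown for the 3 Tet genes, which fell most of the members at 24 h, and for Neil1, which rose most at 24 h, because their content of CG differs. Sequences are from RefSeq on GRCm38.p6, 5′ to 3′ on the strand of the gene, with each CG in capitals. They lie at chr10:62887325-62887574, chr3:133544391-133544640, chr6:83441679-83441928 and chr9:57148306-57148555, all on the minus strand.
Tet1: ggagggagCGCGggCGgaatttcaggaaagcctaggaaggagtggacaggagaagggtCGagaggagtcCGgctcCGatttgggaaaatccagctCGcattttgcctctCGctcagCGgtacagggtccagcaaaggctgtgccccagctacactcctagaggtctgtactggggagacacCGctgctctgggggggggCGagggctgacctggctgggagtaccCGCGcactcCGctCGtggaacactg
Tet2: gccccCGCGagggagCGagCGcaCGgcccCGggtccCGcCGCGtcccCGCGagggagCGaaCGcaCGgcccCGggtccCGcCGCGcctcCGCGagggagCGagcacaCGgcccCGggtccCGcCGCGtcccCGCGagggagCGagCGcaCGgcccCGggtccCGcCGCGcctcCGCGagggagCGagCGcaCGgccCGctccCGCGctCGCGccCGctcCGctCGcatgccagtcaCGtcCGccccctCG
Tet3: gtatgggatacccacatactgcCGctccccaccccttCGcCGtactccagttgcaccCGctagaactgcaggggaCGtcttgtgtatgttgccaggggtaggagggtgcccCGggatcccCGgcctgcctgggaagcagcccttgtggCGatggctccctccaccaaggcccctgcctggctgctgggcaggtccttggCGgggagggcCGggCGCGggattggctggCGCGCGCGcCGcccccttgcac
Neil1: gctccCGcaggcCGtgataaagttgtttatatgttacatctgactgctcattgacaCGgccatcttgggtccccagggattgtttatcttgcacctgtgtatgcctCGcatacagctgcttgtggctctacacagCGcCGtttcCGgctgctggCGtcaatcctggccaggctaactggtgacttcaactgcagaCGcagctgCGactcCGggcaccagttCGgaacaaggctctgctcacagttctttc
The stretch before Tet2 holds 51 CG, a number reached by 0.067% of 32851 RefSeq promoters, against 15 before Tet1, 17 before Tet3 and 12 before Neil1. The median of all promoters is 6. The word CCGCGAGGGA, among the most repeated runs of 10 bases before Tet2, occurs 5 times there. It overlaps other runs repeated as often, and 17 of the promoters (0.0517%) hold it at least once on either strand. Among the other members the count of CG was 5 before Xrcc1, 14 before Smug1, 16 before Parp1, 19 before Tdg and 28 before Apex1. For Tet1 the RefSeq start lies 11794 bp inside the stretch that the expression table gives to the gene. For Neil1 and Smug1 it lies 1271 and 5282 bp before that stretch.

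In serum, Parp1 was the highest of the 9 genes and Tet3 the lowest. Values are log2 expression corrected by the authors for gene length and library depth and set to one 75th percentile (2.51 in every library), so levels can be compared between genes on a scale per length. Mean log2 levels in serum were 6.80 ± 0.12 for Parp1, 6.15 ± 0.10 for Tet1, 5.95 ± 0.05 for Apex1, 4.43 ± 0.13 for Xrcc1 and 4.23 ± 0.11 for Tet2 (SD, n = 3). They were 3.58 ± 0.06 for Tdg, 1.69 ± 0.06 for Smug1, 1.13 ± 0.16 for Neil1 and 0.88 ± 0.17 for Tet3. Replicates of Xrcc1 and Tet2 overlapped, as did those of Neil1 and Tet3, so the order within these 2 pairs was not resolved. By 24 h Tet1 had gone from second to below Apex1 and Xrcc1, with replicates that overlapped those of Tdg, and Tet2 overlapped Neil1. At 72 h the order was Parp1, Apex1, Xrcc1, Tet1, Tet2, Tdg, Smug1, Neil1 and Tet3, and only Tet1 and Tet2 among these neighbours overlapped.

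The libraries were those of ESCs, and a few facts of all libraries bear on what follows. All 10 ESC marker genes checked had a log2 level of 1 or more in every library, and the lowest group mean among them was 4.77. Marker genes of primitive endoderm, early lineages and fibroblasts were low, and only 1 of them, a fibroblast gene, reached a log2 level of 1 in every library. Summed linear levels over each list ran from 2.51 to 3.29 for primitive endoderm (5 genes), from 2.32 to 4.06 for early lineages (5) and from 4.51 to 9.74 for fibroblasts (6), against 1509 to 4227 for the 10 ESC genes. The 4 trophoblast genes summed to 3.07 to 3.71 in serum, 4.10 to 4.41 after 6 h, 0.972 to 1.04 after 24 h and 3.03 to 3.61 after 72 h. The part of these shifts in the changes of the members was not tested. In such bulk samples fewer cells that express a gene and less RNA per cell cannot be told apart.

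At 6 h of 2i Tet1 had already dropped to less than its serum level in every replicate, while no other member passed the test. At 24 h the 3 Tet genes had their lowest levels of the time course by mean, at 7.52-fold, 6.00-fold and 3.24-fold below serum for Tet1, Tet2 and Tet3. The glycosylase genes Smug1 and Neil1 rose at the same time, and Tdg and Parp1 fell. By 72 h Tet2 and Tet1 had risen again from their 24 h levels, Tet1 and Tet3 were still called lower than serum, and the difference of Tet2 from serum no longer passed the test.

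The call was a Benjamini-Hochberg adjusted p under 0.05 in limma, fitted over all 12 libraries on the 12306 genes with a log2 level of 0 or more in at least 3 libraries. All 9 members passed that filter, Tet3 only through its serum and 6 h libraries. At 6 h 1 of 9 members was called, beside 15.6% of all genes, with 6.48% lower and 9.13% higher. At 24 h 8 of 9 were called, 5 lower and 3 higher, beside 63.3% of all genes, with 29.1% lower and 34.2% higher. At 72 h 7 of 9 were called, 4 lower and 3 higher, beside 52.2% of all genes, with 26.5% lower and 25.7% higher. The median log2 change over the members was -0.41 after 24 h and -0.53 after 72 h, against 0.11 and -0.01 over all genes tested. Replicates did not overlap serum for 2, 8 and 8 of the 9 members at the 3 times, beside 44.4%, 64.7% and 63.5% of all genes. Most genes moved by 24 h, so a call by itself sets no member apart, and the sizes and times of the changes are given one by one.

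**Figure D1:**
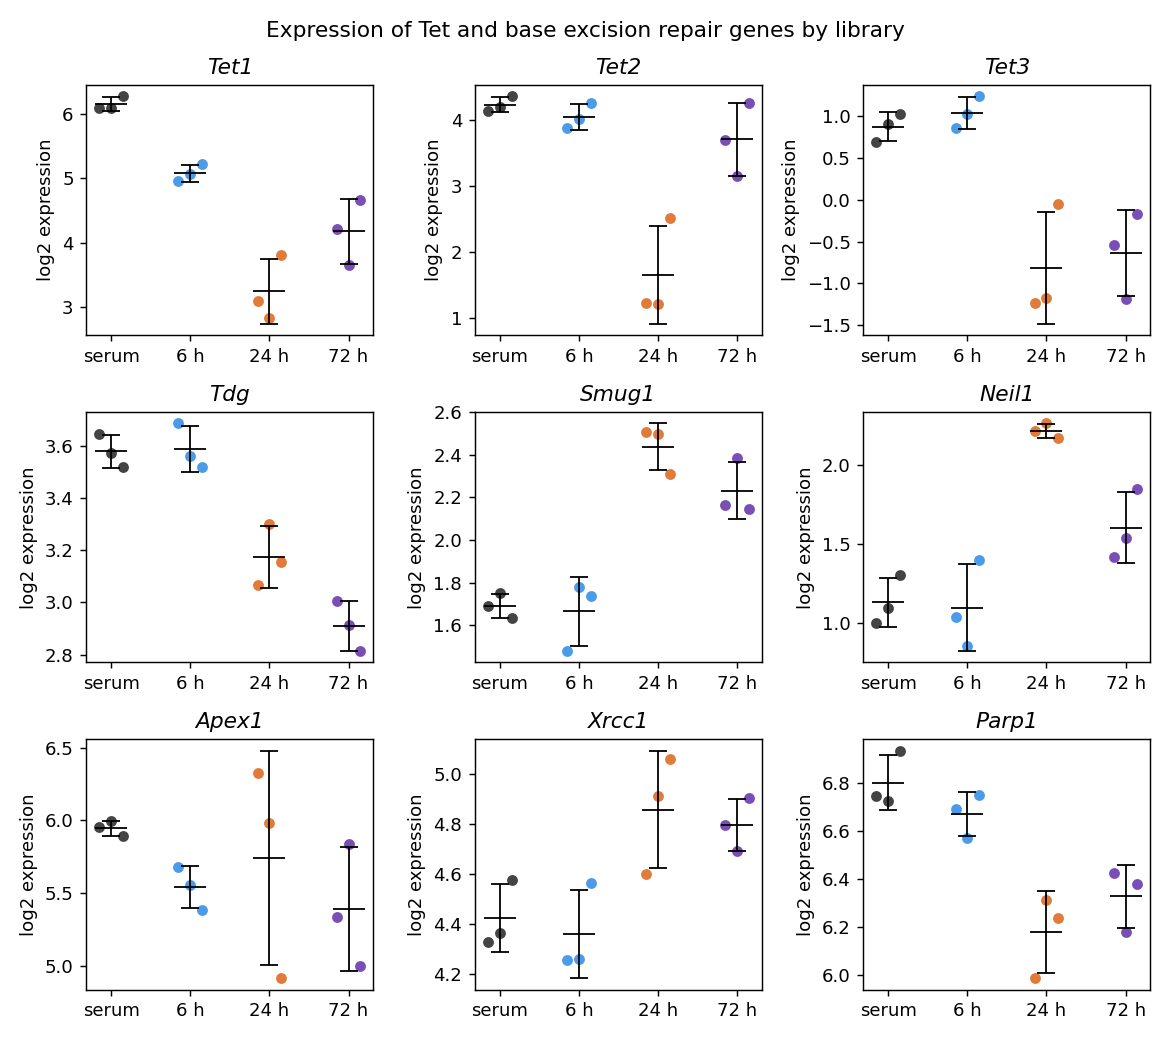
Log2 expression of the 9 genes (vertical axis, scale per length) in each of the 12 libraries, grouped on the horizontal axis as serum and 6, 24 and 72 h of 2i. Points are libraries in the order of replicates 1 to 3, the long bar is the mean and the whiskers are the SD (n = 3). Each panel has its own vertical scale. Tet1 is lower than serum from 6 h on, Tet2 and Tet3 reach their lowest means at 24 h, and Smug1 and Neil1 their highest.

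Tet1, the main TET enzyme of ESCs, had log2 levels of 6.09, 6.10 and 6.27 in serum, 4.96, 5.06 and 5.22 after 6 h, 3.10, 2.83 and 3.80 after 24 h and 4.21, 3.66 and 4.66 after 72 h. None of the 2i libraries overlapped serum at any time, and the 24 h and 72 h libraries overlapped each other. The log2 change from serum (± SE of the fit) was -1.08 ± 0.26 after 6 h (adjusted p = 0.0162 by limma), -2.91 ± 0.26 after 24 h (adjusted p = 5.12e-06) and -1.98 ± 0.26 at 72 h (adjusted p = 8e-05). At 24 h only 0.943% of the genes tested had a more negative change. The call at 6 h was lost without serum replicate 3, 6 h replicate 1 or 6 h replicate 2, with changes of -1.14 to -1.01 and adjusted p up to 0.065 over the libraries left out. Between 24 and 72 h Tet1 rose by 0.93 ± 0.26 (adjusted p = 0.02), beside 31.6% of genes called in that comparison, 15.7% lower and 15.8% higher. Of the 9 members 3 were called in it, and 3 had replicates that did not overlap, beside 33.5% of all genes. That rise missed the threshold without 24 h replicate 1 or 2 or without 72 h replicate 1 or 3, with values from 0.69 to 1.21 and adjusted p up to 0.0882. It also missed it when only the libraries of 24 and 72 h were fitted (adjusted p = 0.109), and with the trend on gene length removed it was 0.61 (adjusted p = 0.0238).

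Tet2, which lacks the CXXC domain that lets TET1 and TET3 bind unmethylated CG, was called lower at 24 h alone in the fit over all libraries. Its log2 levels were 4.14, 4.20 and 4.36 in serum, 3.87, 4.01 and 4.25 after 6 h, 1.22, 1.21 and 2.50 after 24 h and 3.69, 3.15 and 4.26 after 72 h. The 24 h libraries lay below all others, and those of 6 h and 72 h overlapped serum. Replicate 3 was the highest in every group, as it was for Tet1 and Tet3. Against serum, Tet2 differed by -0.19 ± 0.34 after 6 h (adjusted p = 0.831), -2.58 ± 0.34 after 24 h (adjusted p = 6.75e-05) and -0.53 ± 0.34 after 72 h (adjusted p = 0.208). From 24 to 72 h it rose by 2.06 ± 0.34 (adjusted p = 0.00102), and 99.3% of genes had a smaller or more negative change over this interval. Without the third libraries of 24 h and 72 h, an alternative chosen after seeing the data, the 72 h difference from serum was -0.81 with adjusted p = 0.00102. Over single libraries left out, this difference ran from -0.81 to -0.26 (adjusted p from 0.0545 to 0.576) and was never called.

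Tet3, the TET enzyme of the oocyte and zygote, was scarce throughout. Its log2 levels were 0.69, 0.91 and 1.03 in serum, 0.86, 1.03 and 1.24 after 6 h, -1.23, -1.17 and -0.05 after 24 h and -0.54, -1.19 and -0.17 after 72 h. The 6 h libraries overlapped serum, while all 24 h and 72 h libraries lay below it and overlapped each other. Its change was 0.17 ± 0.32 at 6 h (adjusted p = 0.854), -1.69 ± 0.32 at 24 h (adjusted p = 0.000949) and -1.51 ± 0.32 at 72 h (adjusted p = 0.00229). The test of 72 h against 24 h gave 0.18 ± 0.32 (adjusted p = 0.679). All its values at 24 and 72 h were below 0, so the filter kept Tet3 through serum and 6 h alone. Its calls at 24 and 72 h held with no filter. The stricter filter, a log2 level of 1 or more in at least 6 libraries, left Tet3 out.

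The sum of the 3 Tet genes, on the linear scale per length, fell from between 87.3 and 99.9 in serum to between 47.5 and 58.6 after 6 h and between 9.87 and 20.6 after 24 h, and was between 21.9 and 45.3 after 72 h. The groups of 6, 24 and 72 h each lay below serum with no overlap. Tet1 made up 77.5% ± 0.4 of this sum in serum (SD, n = 3), 64.6% ± 1.0 after 6 h, 71.8% ± 3.9 after 24 h and 57.0% ± 1.1 after 72 h. Tet2 made up 20.4% ± 0.3, 31.5% ± 0.9, 23.9% ± 3.5 and 41.0% ± 1.2 in the same order, and Tet3 never more than 4.70%. The log2 difference between Tet1 and Tet2 was 1.92 in serum, and the difference from serum was -0.89 after 6 h, -0.33 after 24 h and -1.45 after 72 h. Its replicates did not overlap serum at any of the 3 times, and each exact two-sided permutation test gave p = 0.1 (0.1 after adjustment over 3 tests), the smallest p that 3 libraries against 3 allow.

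Tdg, the glycosylase that removes oxidised methylcytosine, was lower than serum at both 24 and 72 h. Its log2 levels were 3.65, 3.57 and 3.52 in serum, 3.68, 3.56 and 3.52 after 6 h, 3.06, 3.30 and 3.15 after 24 h and 3.00, 2.91 and 2.81 after 72 h. Libraries of 24 and 72 h lay below all of serum and 6 h, and those of 72 h below all of 24 h. The change was -0.41 ± 0.10 at 24 h (adjusted p = 0.0041) and -0.67 ± 0.10 at 72 h (adjusted p = 0.000175). The step from 24 to 72 h was -0.26 ± 0.10 (adjusted p = 0.062), and with the replicate number as a block it was called (adjusted p = 0.0373).

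Smug1 and Neil1, the other glycosylase genes among the members, moved the other way. SMUG1 removes uracil and 5-hydroxymethyluracil, and NEIL1 removes oxidised bases and can also open the empty site. Smug1 had log2 levels of 1.69, 1.75 and 1.64 in serum, 1.48, 1.78 and 1.74 after 6 h, 2.51, 2.50 and 2.31 after 24 h and 2.17, 2.38 and 2.15 after 72 h. All 6 libraries of 24 and 72 h lay above all 6 of serum and 6 h. Smug1 rose by 0.74 ± 0.12 at 24 h (adjusted p = 0.000243) and by 0.54 ± 0.12 at 72 h (adjusted p = 0.00235).

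Neil1 had log2 levels of 1.00, 1.10 and 1.30 in serum, 1.04, 0.86 and 1.40 after 6 h, 2.21, 2.26 and 2.17 after 24 h and 1.42, 1.54 and 1.85 after 72 h. The 24 h libraries stood above all others and close to each other, and those of 72 h lay between 24 h and serum. Neil1 rose by 1.08 ± 0.16 at 24 h (adjusted p = 0.00016), and 72 h was lower than 24 h by 0.61 ± 0.16 on the log2 scale (change -0.61, adjusted p = 0.0138). At 72 h it was still above serum by 0.47 ± 0.16 (adjusted p = 0.0273). This last call was lost without serum replicate 1 or 2 or without 72 h replicate 3, and the one from 24 to 72 h without 72 h replicate 1.

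Apex1, the endonuclease that cuts at the empty site, was the only member that the fit over all libraries called at no time. Its log2 levels were 5.95, 6.00 and 5.89 in serum, 5.68, 5.56 and 5.39 after 6 h, 6.33, 5.98 and 4.91 after 24 h and 5.34, 5.84 and 5.00 after 72 h. All libraries of 6 h and 72 h lay below serum, while those of 24 h lay on both sides of it and spread over more than 1 log2 unit. The changes were -0.41 ± 0.31, -0.20 ± 0.31 and -0.56 ± 0.31 at 6, 24 and 72 h (adjusted p = 0.481, 0.573 and 0.151). At 24 h replicate 3 decided the sign, since the change without it was 0.21 (adjusted p = 0.373), and 72 h was then lower than 24 h by a called -0.77 (adjusted p = 0.00933). When only the libraries compared were fitted, Apex1 passed at 6 h (adjusted p = 0.00872) and at 72 h (adjusted p = 0.0465). At 72 h it also passed with quantile scaling (-0.58, adjusted p = 0.0348) and without 24 h replicate 3 (-0.56, adjusted p = 0.0214).

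Xrcc1, the scaffold of single-strand break repair, had log2 levels of 4.33, 4.37 and 4.58 in serum, 4.26, 4.26 and 4.57 after 6 h, 4.60, 4.91 and 5.06 after 24 h and 4.80, 4.69 and 4.90 after 72 h. Libraries of 24 and 72 h lay above serum, but serum replicate 3 and 24 h replicate 1 nearly met. Xrcc1 rose by 0.43 ± 0.14 at 24 h (adjusted p = 0.018) and by 0.37 ± 0.14 at 72 h (adjusted p = 0.0418). Both calls were fragile. At 24 h the call was lost without serum replicate 1 or 2 or without 24 h replicate 2 or 3, and at 72 h without any of 7 single libraries, with adjusted p up to 0.0646 and 0.129. Quantile scaling also lost the call at 24 h (adjusted p = 0.0855) and at 72 h (adjusted p = 0.0785). So did fitting only the libraries compared at 24 h (adjusted p = 0.0513) and using no filter at 72 h (adjusted p = 0.0665).

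Parp1, which binds strand breaks and makes poly(ADP-ribose), had log2 levels of 6.75, 6.72 and 6.93 in serum, 6.69, 6.57 and 6.75 after 6 h, 5.99, 6.31 and 6.24 after 24 h and 6.42, 6.18 and 6.38 after 72 h. All libraries of 24 and 72 h lay below those of serum and 6 h. Parp1 fell by 0.62 ± 0.12 on the log2 scale at 24 h (adjusted p = 0.00122) and by 0.47 ± 0.12 at 72 h (adjusted p = 0.00743).

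**Figure D2:**
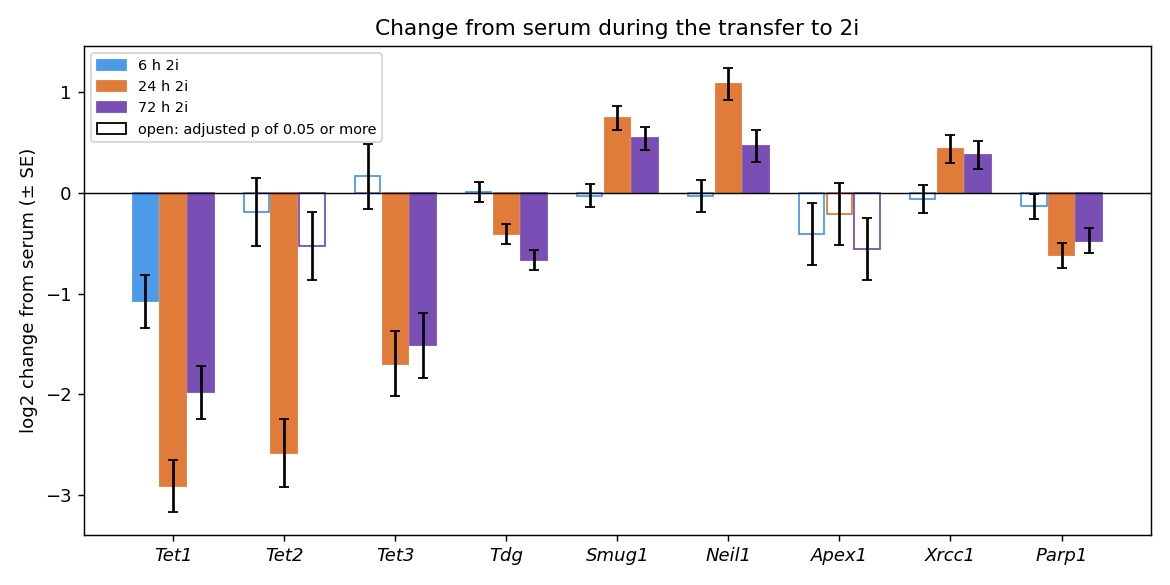
Log2 change from serum (vertical axis) of each gene (horizontal axis) at 6, 24 and 72 h of 2i, with the SE of the limma fit as error bars. Open bars did not pass the adjusted p threshold of 0.05. Tet1, Tet2 and Tet3 have the 3 most negative bars at 24 h, from -2.91 to -1.69, and Neil1 the highest, at 1.08.

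In these libraries the change at 24 h also moved with the length of the gene. The part of length in the changes of the members was not tested. When the genes tested were split by the stretch they span into 10 groups of nearly equal size, the median change at 24 h ran from 0.59 in the group of shortest genes to -0.46 in the longest. The Tet genes lie in group 9, counted from the shortest, with a median of -0.37 and 48.4% of genes called lower. Smug1 and Neil1 lie in group 2 (median 0.47, 47.4% called higher), Tdg and Xrcc1 in group 6 (median 0.11), Parp1 in group 7 (median -0.01) and Apex1 in group 1 (median 0.59). In each library, the deviation of genes from their own mean over the 12 libraries was also fitted on length. This slope differed between replicates, from -0.15 to -0.01 log2 units per doubling of length at 24 h and from -0.06 to 0.05 at 72 h. Replicate 3 had the highest slope of both groups. With a smooth trend on length removed from each library, the 24 h changes were -2.47 for Tet1, -2.18 for Tet2, -1.29 for Tet3, -0.45 for Tdg, -0.51 for Parp1, 0.45 for Smug1, 0.76 for Neil1 and 0.47 for Xrcc1. All 8 stayed called in the same direction (largest adjusted p = 0.0073, for Xrcc1). Apex1 then passed, at -0.58 ± 0.21 (adjusted p = 0.0326), and at 72 h at -0.66 ± 0.21 (adjusted p = 0.0198), while Neil1 lost its calls at 72 h (0.39, adjusted p = 0.0947) and between 24 and 72 h (-0.37, adjusted p = 0.153).

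**Figure D3:**
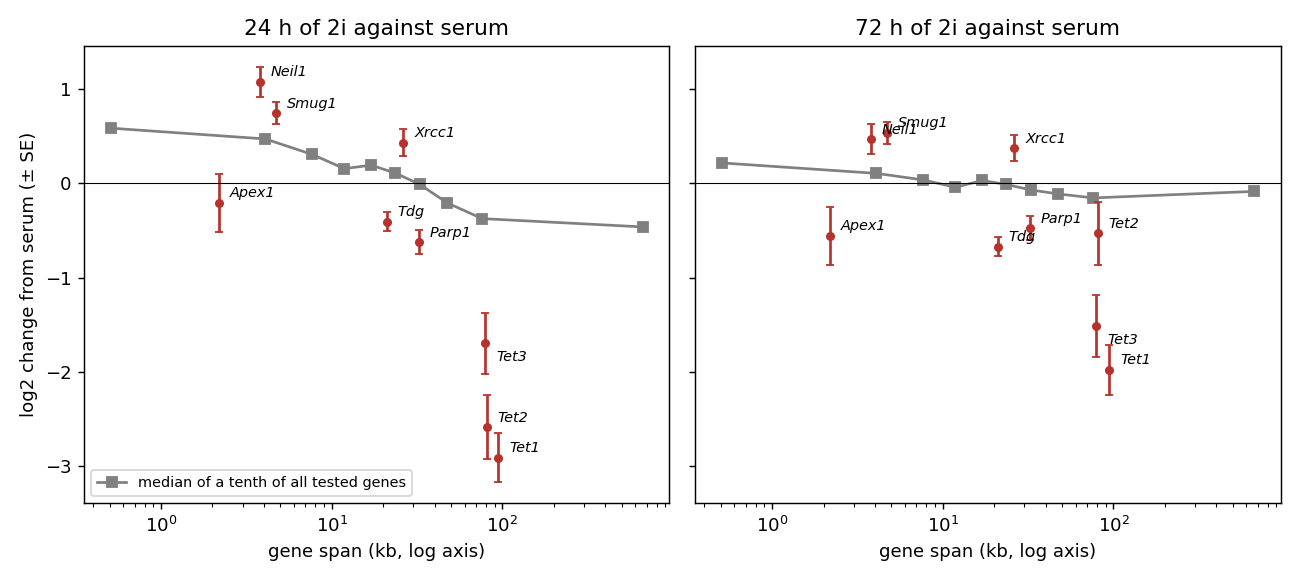
Log2 change from serum (vertical axis) against gene span in kb (horizontal log axis) at 24 h on the left and 72 h on the right. Grey squares are medians of 10 groups of nearly equal size among the 12306 genes tested, placed at the middle of each group on the log axis, and red points are the 9 genes with the SE of the fit. At 24 h the medians go from 0.59 for the shortest genes to -0.46 for the longest, and Tet1, Tet2 and Tet3 differ from the median of their group by -2.54, -2.21 and -1.32.

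The rest of the pathway was read from 4 wider lists. Of 11 DNA glycosylase genes, Tdg, Smug1 and Neil1 included, none was called at 6 h by limma (2 were when only serum and 6 h were fitted), 8 were higher and 1 lower at 24 h, and 4 were higher and 1 lower at 72 h. Over all genes the shares called were 15.6%, 63.3% and 52.2%, with 34.2% higher at 24 h and 25.7% at 72 h. Tdg was the one that fell. Their median change at 24 h was 0.74, against 0.11 over all genes, but 9 of the 11 span 3.78 to 12.7 kb, and groups 2 to 4 by length, which hold such genes, had medians of 0.47, 0.31 and 0.16. Neil2, a glycosylase of oxidised bases, rose by 1.99 ± 0.18 at 24 h (adjusted p = 6.4e-06) and 0.80 ± 0.18 at 72 h (adjusted p = 0.00354). Mutyh, which removes adenine paired with 8-oxoguanine, rose by 1.12 ± 0.12 at 24 h (adjusted p = 1.86e-05) and stood at 0.09 ± 0.12 at 72 h (adjusted p = 0.56). Neil3 rose by 1.08 ± 0.28 at 24 h (adjusted p = 0.00555) and stood at 0.39 ± 0.28 at 72 h (adjusted p = 0.261), where its libraries overlapped serum. Neil2 and Neil3 started near the filter limit of 0, with mean log2 levels in serum of 0.04 and -0.13.

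Of 14 genes of the steps after base removal, Apex1, Xrcc1 and Parp1 included, 1 was lower at 6 h, 5 were higher and 4 lower at 24 h, and 3 were higher and 6 lower at 72 h. Over all genes 15.6% were called at 6 h, 63.3% at 24 h and 52.2% at 72 h, where 25.7% were higher and 26.5% lower. Their median change was -0.04 at 24 h and -0.21 at 72 h. Polb, the polymerase that fills the gap, had log2 levels of 3.25 to 3.37 in serum and 4.20 to 4.90 at 24 h, a rise of 1.25 ± 0.16 (adjusted p = 5.71e-05). Lig3, the ligase bound by XRCC1, fell by 0.76 ± 0.13 (adjusted p = 0.000453). Apex2, a second endonuclease of the same family as Apex1, was the gene lower at 6 h and fell by 1.12 ± 0.13 at 24 h (adjusted p = 2.38e-05). Its mean log2 level was low, at 1.01 in serum and -0.11 at 24 h. The call of Apex2 at 6 h (-0.48, adjusted p = 0.0234) was lost when any one of 4 libraries, the 3 of serum and 6 h replicate 1, was left out.

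Of the cytidine deaminase genes, which have been discussed as another way to a base that repair can remove, 3 were tested. Apobec1 rose by 1.75 ± 0.16 and Apobec2 by 1.51 ± 0.24 at 24 h, and Apobec3 fell by 0.55 ± 0.09 (adjusted p = 6.14e-06, 0.00025 and 0.000377). All 3 were called in the same direction at 6 h and 72 h. Among the 12306 genes tested, limma called 15.6% (6 h), 63.3% (24 h) and 52.2% (72 h).

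Of the genes of TET partners and of enzymes that make or remove 2-oxoglutarate or its analogue 2-hydroxyglutarate, 13 of 15 were tested. At 6 h 1 was higher and 1 lower, at 24 h 8 were higher and 3 lower, and at 72 h 7 were higher and 2 lower, beside 15.6%, 63.3% and 52.2% of all genes called. With the replicate number as a block, 4 rather than 2 were called at 6 h. Idh1, the cytosolic isocitrate dehydrogenase that makes 2-oxoglutarate, had log2 levels of 3.95 to 4.22 in serum, 5.47 to 5.93 after 24 h and 5.81 to 6.07 after 72 h. It rose by 1.60 ± 0.14 at 24 h (adjusted p = 3.43e-06) and 1.82 ± 0.14 at 72 h (adjusted p = 9.41e-07). Its mitochondrial counterpart Idh2 rose by 1.47 ± 0.13 and 1.69 ± 0.13 (adjusted p = 5.44e-06 and 1.46e-06). Gadd45b, of a family of stress proteins linked to demethylation, rose by 1.66 ± 0.25 at 24 h (adjusted p = 0.000174). The other 2 genes of that family, named here after their values were seen, differed from it. Gadd45a was lower than serum after 6, 24 and 72 h (-1.58, -1.27 and -1.69, adjusted p = 2.04e-06, 2.4e-06 and 1.7e-07), and Gadd45g was higher after 6 and 24 h (1.01 and 0.88) and lower after 72 h (-0.97, adjusted p = 0.000235, 0.000145 and 7.6e-05).

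The genes most like each Tet gene over the 12 libraries were found by Pearson correlation among the other genes tested. For Tet1 they were Zfp281, 2810474O19Rik and Rif1, each with r = 0.995. For Tet2 they were Ino80d, Slmap and Tcf7l2 (r = 0.995, 0.995 and 0.994). For Tet3 they were A830010M20Rik, Sec16a and Cenpe (r = 0.996, 0.995 and 0.993). The libraries share the 4 conditions and the differences in slope on length, and these 9 genes span 5.15 to 192 kb. Tet1 itself correlated with Tet2 at 0.87 and with Tet3 at 0.88, with Parp1 at 0.91, with Smug1 at -0.89 and with Apex1 at 0.01.

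H3K9me2, a mark of repressed chromatin that recruits the maintenance factor UHRF1, gave less signal than input in serum over 7 of the 8 members tested and more over Tet3, where it too was below input in LT2i. In serum 22.4% of all genes were above input, with a median log2 ratio of -1.01, so a ratio below 0 is not particular to the members. It is given as the log2 ratio of summed bound signal to summed input signal over the bins of a gene, after the authors had scaled each library to the one with the most reads. Values below 0 mean less signal in the bound fraction than in input. The 9 libraries held 14396552 to 23785128 reads in bins. In LT2i the ratio was lower than in serum over all 8 members tested, as it was over most genes. After centring each library on its median, Tet1, Tet3 and Xrcc1 had changes above 0 instead. The median change over all genes was then 0.30, so this is no gain relative to the median gene.

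Over Tet3 the log2 ratio was 0.38 and 0.16 in serum, 0.02 and 0.02 at 24 h and -0.35 and -0.57 in LT2i, from 505 to 1121 bound reads per library. No other member was above 0 in any library. In serum Tet3 lay above 87.0% of the 19068 genes tested. Along the gene, 24 of 40 bins were above input in serum, 19 at 24 h and 10 in LT2i. The highest bin was the same in all 3 conditions, 36.7 kb from the start, at 2.01, 1.70 and 1.66. The first 10 bins from the start had -0.56 in serum, -0.94 at 24 h and -2.37 in LT2i (mean of 2 libraries), while bins from 40 to 60 kb had 0.65, 0.25 and -0.20.

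Tet1 and Tet2 carried less. Over Tet1 the ratio was -2.54 and -2.57 in serum, -2.40 and -2.34 at 24 h and -3.47 and -3.46 in LT2i, and none of 47 bins was above input in any condition. Over Tet2 it was -1.44 and -1.48 in serum, -1.08 and -1.14 after 24 h and -2.49 and -2.49 in LT2i, with 1 of 38 bins above input in serum, 2 after 24 h and 1 in LT2i. The 48 bins that Tet1 spans and the 42 that Tet2 spans were not all in the table. In both genes the LT2i libraries lay below all others.

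**Figure D4:**
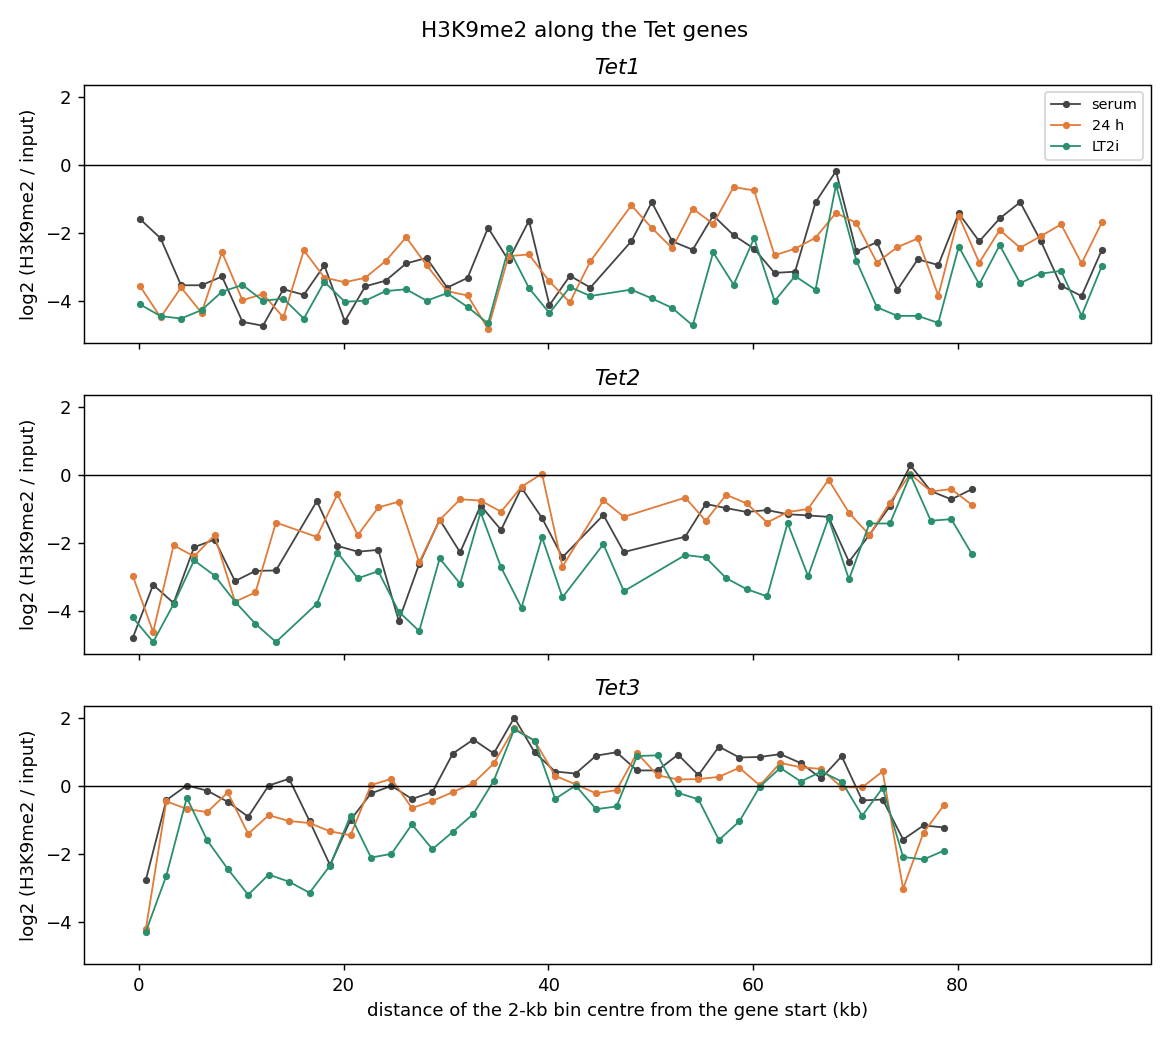
Log2 ratio of H3K9me2 to input (vertical axis, mean of 2 bound libraries over the 1 input) in each 2-kb bin along Tet1, Tet2 and Tet3, against the distance of the bin from the gene start in kb (horizontal axis), in serum, 24 h of 2i and LT2i. Tet3 has a stretch above 0 whose highest bin lies 36.7 kb from the start at 2.01 in serum and 1.66 in LT2i, and Tet1 has no bin above 0. Single bins rest on few reads.

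Among the repair genes tested, Xrcc1 was the lowest, at -3.10 and -2.99 in serum, -2.92 and -2.66 at 24 h and -3.61 and -3.76 in LT2i. Parp1 had -1.40 and -1.39, then -1.16 and -1.18, then -3.004 and -3.118. Neil1 had -1.07 and -1.16, -0.97 and -0.97, and -3.30 and -2.44. In all 3 genes the LT2i libraries lay below those of serum and 24 h.

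Tdg had -1.58 and -1.53 in serum, -1.58 and -1.39 at 24 h and -2.88 and -2.41 in LT2i. Smug1 had -1.13 and -1.40, -1.17 and -1.23, and -2.55 and -1.90. For both the serum and 24 h libraries overlapped and those of LT2i lay lower. Apex1, which spans 2 bins, had 0 to 4 bound reads per library against 20 to 35 input reads. Its summed input signal was under the minimum of 50, and it was not tested.

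At 24 h none of the 8 members tested was called by limma, and 0.0% of the 19068 genes were. At an unadjusted p under 0.05 there were 3575 genes (18.7%), among them Tet2 (0.35 ± 0.13, adjusted p = 0.217). The changes of the others ran from -0.25 ± 0.11 for Tet3 to 0.26 ± 0.21 for Xrcc1. With the bound signal alone 683 genes were called, and with only the bins within 2 kb of the gene start 195, but no member was among either. With these start bins the sign at 24 h turned for Tet1 (-1.06, adjusted p = 0.237) and Tet2 (-0.64, adjusted p = 0.522), on 2 to 12 bound reads per library. It kept its sign for the others, with larger rises for Tdg (0.94, adjusted p = 0.233), Smug1 (0.90, adjusted p = 0.305) and Xrcc1 (0.73, adjusted p = 0.325). The start bins follow the start in the expression table, which for Tet1 and Smug1 is 11794 and 5282 bp from the RefSeq start. There they do not cover the RefSeq start, and which start these cells use was not tested. Replicates of serum and 24 h did not overlap for 6 of the 8 members, beside 53.1% of all genes.

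In LT2i 8 of 8 members were called lower, beside 64.9% of all genes called, 58.2% lower and 6.71% higher, and 69.0% at an unadjusted p under 0.05. Replicates of serum and LT2i were free of overlap in all 8, beside 83.2% of all genes. The median over all genes was -0.64, so the members are read against that shift. Neil1 (-1.75 ± 0.27, adjusted p = 0.0018) and Parp1 (-1.67 ± 0.14, adjusted p = 0.000377) differed from the median change by -1.11 and -1.03 log2 units, and 4.47% and 5.96% of genes had a more negative change. Tdg (-1.10), Tet2 (-1.03), Smug1 (-0.96) and Tet1 (-0.91) differed from it by -0.46, -0.39, -0.32 and -0.27, and Tet3 (-0.73) by -0.09. With start bins alone the calls of Tdg (-0.11, adjusted p = 0.869), Tet2 (-1.04, adjusted p = 0.0763) and Parp1 (-0.78, adjusted p = 0.187) were lost. The call of Smug1 was lost without serum replicate 1 (-0.83, adjusted p = 0.0573). Xrcc1 (-0.64 ± 0.21, adjusted p = 0.035) lay at the median, and its call was lost when any one of the 4 serum and LT2i libraries was left out, with values from -0.71 to -0.57 and adjusted p up to 0.133. In these ratios a bin without reads held a value just under that of 1 read. With such bins counted as 0, an alternative chosen after seeing the data, Xrcc1 changed by -1.03, against a median of -0.74 over all genes.

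After each library was centred on its median, calls in LT2i over all genes turned from 1279 higher and 11101 lower to 7504 higher and 2018 lower. Of the members only Parp1 (-0.73, adjusted p = 0.00418) and Neil1 (-0.81, adjusted p = 0.048) remained called. Tet1 (0.03), Tet3 (0.21) and Xrcc1 (0.30) then lay above 0 without passing. The median change over all genes was then 0.30, so Tet1 and Tet3 lay below the median gene and Xrcc1 at it. Centring was not run with bins without reads counted as 0. Scaled reads without an added standard cannot tell a loss of the mark across the genome from a change in its distribution. The LT2i values of Smug1 rest on 14 and 18 bound reads and those of Neil1 on 7 and 11, so their size is known only roughly.

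**Figure D5:**
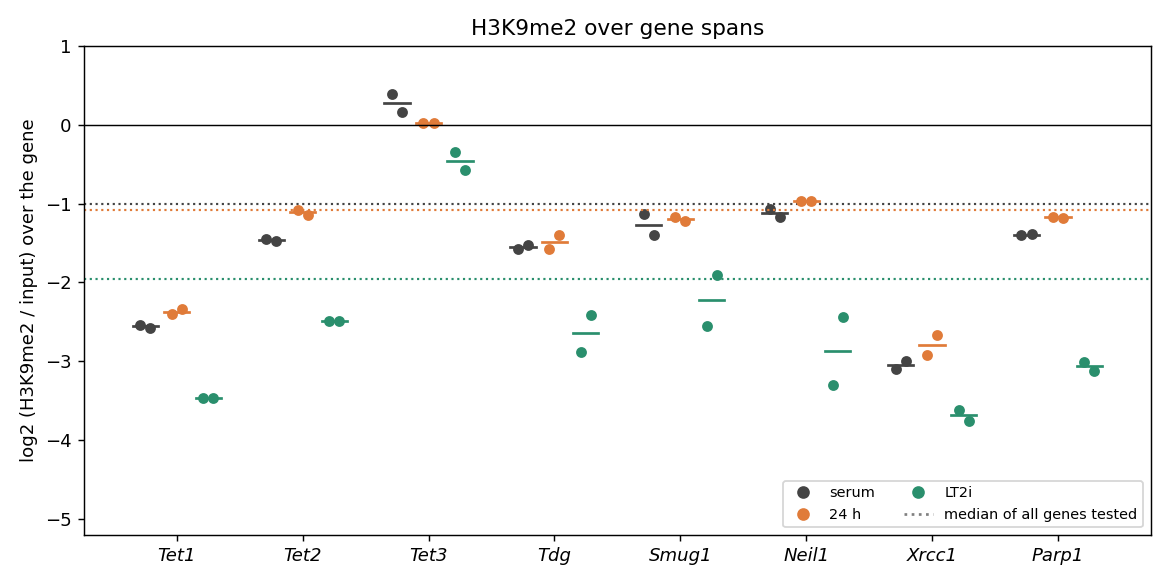
Log2 ratio of H3K9me2 to input over the span of each of the 8 genes tested (vertical axis) in serum, 24 h of 2i and LT2i. Points are the 2 bound libraries of a condition over its 1 input, short bars their mean, and dotted lines the median of the 19068 genes tested in each condition. Tet3 alone reaches 0, and all 8 genes are lower in LT2i than in serum. Once libraries are centred on their medians, Tet1, Tet3 and Xrcc1 are above 0 relative to serum, where the median change of all genes is 0.30.

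RNA and H3K9me2 were both measured in serum and at 24 h of 2i. Over these 24 h Tet1 and Tet2 fell by 2.91 and 2.58 log2 units in RNA, while their H3K9me2 ratio over the whole gene changed by 0.19 ± 0.18 and 0.35 ± 0.13, in a comparison that called 0 of 19068 genes by limma (3575 at an unadjusted p under 0.05), and in the bins at the start in the expression table, which for Tet1 is not the RefSeq start, by -1.06 and -0.64. Tet3, whose RNA fell by 1.69, had an H3K9me2 change of -0.25 ± 0.11. RNA of LT2i was not analysed here, so the lower H3K9me2 in LT2i has no matching expression value.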

How the data were processed

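RNA-seq libraries were made with an unstranded kit and read as single ends of 50 bases. The labels' processing notes name Trim Galore 0.3.5, TopHat2 2.0.11, Bowtie2 and Bismark 0.12.3 with the builds GRCm38 and NCBIM37, with no roles. The authors deposited log2 expression per gene, corrected for length and depth and set to a common 75th percentile. The files do not give the depth of RNA-seq, which is unknown, and no count model was run. For ChIP-seq the authors deposited log2 signal per 2-kb bin, bound and input apart. Undoing their scaling gave whole reads for 100% of values within 2%, with bins without reads counted as whole. For bins with many reads this tolerance exceeds the distance to the nearest whole number, so the check could fail only in bins with few reads. Such bins, 1.30% to 5.44% of bins in the bound libraries, hold a value that entered the summed signal. It is just under that of 1 read, at log2 0.21 against 0.36 in LT2i replicate 1. In LT2i Tet1 held 69 and 56 bound reads over 47 bins and Xrcc1 21 and 12 over 14. Such bins were more frequent over these 2 genes, which raises their summed LT2i signal.

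From these values, RNA contrasts were fitted with limma 3.58.1 in R 4.3.3 (variance trend, adjustment over 12306 genes with log2 of 0 or more in 3 libraries). H3K9me2 was summed over all bins touching a gene, bound and input, and the log2 ratio fitted over 19068 genes with a summed input signal of 50 or more in each input. The limma fits of both assays were tested on simulated data. The study describes biological replicates for RNA (n = 3). Nothing says that the ChIP-seq replicates came from separate cultures, so their p-values measure only the spread between libraries, which may be technical. The 2 bound libraries of a condition share 1 input. The SE, p-values and overlaps of H3K9me2 therefore hold no error of the input, which in LT2i had 59 reads over Neil1 and 70 over Smug1.

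Members and lists were chosen with earlier results of these data known. Named genes are the 9 members, from each wider list up to 3 other called genes with the largest change at 24 h, and for each Tet gene the 3 most correlated genes. Alternatives were quantile or median scaling, other filters, only the libraries compared, no variance trend, a replicate block, each library left out, a length trend (spline with 4 degrees of freedom) removed, and for H3K9me2 no input or start bins only. Bisulfite files lie on NCBIM37 and were not used here.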

Additional observations from a re-analysis of the deposited data

Results flagged for a closer look

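In 3 of the 9 genes the change from serum differed between 24 and 72 h, by the limma test of 72 h against 24 h with both times set against the same serum libraries. Of all genes tested 31.6% were called in that comparison, so the count is not particular to these genes. The difference was 2.06 for Tet2, 0.93 for Tet1 and -0.61 for Neil1 on the log2 scale, each towards the serum level. The difference of Tet2 was called under all 22 alternatives. That of Tet1 was not called without any one of 4 libraries or when only the libraries compared were fitted (adjusted p = 0.109), and its 24 and 72 h libraries overlapped. That of Neil1 was not called without 72 h replicate 1 (-0.52, adjusted p = 0.0648) or with the trend on gene length removed (-0.37, adjusted p = 0.153). Groups of 3 and 2 libraries are too small for a test of single outlying libraries.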

How the results depend on the processing

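Of the changes of single members recomputed under alternatives, 891 kept their direction and side of the threshold, 55 lost the call, 10 gained it and 24 turned in sign, and of the counts of called genes 421 stayed within 1.5 times and 43 did not. The cause of these differences was not tested, except where fewer libraries were fitted or a call needed a minimum size.

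With only the libraries compared, called counts at 6 h were 2 members, 2 glycosylases, 4 genes of later steps and 6 TET partners (3585 genes in place of 1920), and from 24 to 72 h 3 glycosylases, 0 later steps and 1 partner (1587 in place of 3886). Requiring a log2 change of 1 left 4, 2 and 1 members at 24 h, 72 h and 72 h against 24 h. For glycosylases it left 4, 0 and 2, for later steps 2, 0 and 0 (0 at 6 h), for partners 5, 5 and 1, and for deaminases 1 at 6 h, with 652, 3378, 2579 and 1174 genes in the 4 comparisons. Quantile scaling gave 4 partners at 6 h and, from 24 to 72 h, 6 partners and 1 deaminase (1953 and 4095 of 12322 genes). The stricter filter gave 0 later steps at 6 h (1303 of 9966 genes), and leaving out replicate 3 of both 24 and 72 h, chosen after seeing the data, 5 partners from 24 to 72 h (5751 genes).

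Over single libraries left out, members called ran from 0 to 1 at 6 h and from 1 to 4 between 24 and 72 h. Later steps ran from 0 to 1 and from 2 to 6, and in the last comparison glycosylases from 3 to 6 and deaminases from 0 to 1. Among all 12306 genes, those called over the same runs ranged from 1230 to 2434 at 6 h. Between 24 and 72 h they ranged from 2427 to 6692. Signs turned within -0.040 to 0.044 for Tdg, -0.085 to 0.066 for Smug1, -0.17 to 0.013 for Xrcc1 and -0.18 to 0.085 for Neil1 at 6 h, -0.50 to 0.21 for Apex1 at 24 h, and -0.050 to 0.57 for Tet3 and -0.19 to 0.041 for Xrcc1 between 24 and 72 h. For H3K9me2 at 24 h they turned within -0.027 to 0.16 for Tdg and -0.068 to 0.20 for Smug1.

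Other turned signs were Apex1 at 24 h without these 2 libraries (0.21), and between 24 and 72 h Tet3 (-0.11) and Smug1 (0.026) with the length trend removed and Xrcc1 with quantile scaling (0.026). For H3K9me2 at 24 h they were Tet1 (-1.06) and Tet2 (-0.64) with start bins and Tdg (-0.051) and Smug1 (-0.17) without input. In LT2i they were Tet1 (0.033), Tet3 (0.21) and Xrcc1 (0.30) after median centring, which called 2 members and gave a median of 0.30 over all genes. Start bins called 5 members (5823 genes in place of 12380). Counting bins without reads as 0, an alternative chosen after seeing the data, still called 8.

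With the replicate number as a block, Tdg between 24 and 72 h gained a call (-0.26, adjusted p = 0.0373) and Xrcc1 in LT2i lost it (-0.64, adjusted p = 0.0531). The block gave 4 partners at 6 h, and 8 glycosylases and 5 partners between 24 and 72 h, with 2569, 8739, 7498 and 5791 genes in the 4 RNA comparisons and 12428 in LT2i. Same-numbered RNA libraries deviated together with r of -0.25 to 0.81. All pairs were over 0.1 between serum and 6 h, serum and 24 h, and 6 h and 72 h, but 3 of all 18 pairs, in the other comparisons, were not, and a library correlated best with its own number in 24 of 36 cases. The labels tie the numbers to no batch, and whether they mark one was not settled. H3K9me2 over short genes is limited by few reads, and the depth behind the RNA values is unknown.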
